A study of Homo sapiens with 52 samples.

Results

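Replicative senescence (RS) was compared with the untreated state in WI-38 cells, normal human embryonic lung fibroblasts that divide only a limited number of times. The genes described are the 15532, of 59408 in the deposited table of RS against untreated cells, with a mean normalized count of at least 10 over the 4 libraries of that table. RS cells had been passaged until they stopped dividing, at a population doubling level (PDL) of about 52, and their labels give telomere shortening as both genotype and treatment. Untreated cells were young cultures between PDL 32 and 46, labelled as wild type. Both were kept in the same serum-containing medium and neither is labelled with an added agent. Passage number, time in culture and growth arrest differ together between the groups and cannot be told apart. To show where RS differed from the late days of the other inducers, 3 more groups were used, each collected 16 days after an exposure of 24 h. These were PMD-Sen cells, exposed to 0.009% SDS, a detergent that damages the plasma membrane, Ca2+-Sen cells, exposed to medium with 75 mM KCl, and DDR-Sen cells, exposed to 250 nM doxorubicin (DXR), which damages DNA. Each group had 2 libraries, which the methods of the study describe as independent samples, and the p-values measure the spread between them.

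In normal human fibroblasts, telomeres shorten with each division until some chromosome ends are read as damaged DNA. The tumour suppressor p53 then raises p21, encoded by CDKN1A, and the separate inhibitor p16, encoded by CDKN2A, accumulates. Both hold the RB family in its repressing form, which silences the E2F target genes of DNA replication and, with the DREAM complex, the genes of mitosis. Arrested cells are known for a loss of lamin B1, a larger lysosomal compartment and the senescence-associated secretory phenotype (SASP), a release of cytokines, proteases and growth factors.

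The promoters of these 2 groups of cell cycle genes differ in their sequence, and 3 examples of each are shown because both groups fell in RS, as described further on. Each is the stretch of 150 bases before the RefSeq transcription start in GRCh38.p14, written 5′ to 3′ on the strand of the gene. The examples were taken in order of p from list members that hold the marked motif within this stretch, so its presence in them is no result. For the mitosis genes ANLN (chr7:36389712-36389861, plus strand), KIF23 (chr15:69414199-69414348, plus strand) and KIF11 (chr10:92592980-92593129, plus strand), capitals mark the CHR, the cell cycle genes homology region, in either orientation.
ANLN: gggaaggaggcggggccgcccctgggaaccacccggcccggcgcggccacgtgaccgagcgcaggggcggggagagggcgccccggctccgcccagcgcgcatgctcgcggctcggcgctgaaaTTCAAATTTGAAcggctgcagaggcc
KIF23: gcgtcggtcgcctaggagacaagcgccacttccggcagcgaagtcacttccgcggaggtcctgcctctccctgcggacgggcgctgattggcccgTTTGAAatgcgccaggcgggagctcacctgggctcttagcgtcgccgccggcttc
KIF11: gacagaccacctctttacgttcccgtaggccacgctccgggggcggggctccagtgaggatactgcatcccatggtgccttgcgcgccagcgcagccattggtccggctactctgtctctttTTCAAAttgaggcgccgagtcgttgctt
For the replication genes MCM6 (chr2:135876444-135876593, minus strand), TYMS (chr18:657503-657652, plus strand) and RFC3 (chr13:33817999-33818148, plus strand), capitals mark an E2F motif in either orientation.
MCM6: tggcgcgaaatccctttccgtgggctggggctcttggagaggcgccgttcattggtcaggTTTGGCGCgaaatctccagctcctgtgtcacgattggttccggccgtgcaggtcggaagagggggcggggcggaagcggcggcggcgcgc
TYMS: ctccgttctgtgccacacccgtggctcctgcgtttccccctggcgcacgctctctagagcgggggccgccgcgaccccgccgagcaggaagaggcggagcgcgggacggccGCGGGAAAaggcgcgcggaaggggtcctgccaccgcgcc
RFC3: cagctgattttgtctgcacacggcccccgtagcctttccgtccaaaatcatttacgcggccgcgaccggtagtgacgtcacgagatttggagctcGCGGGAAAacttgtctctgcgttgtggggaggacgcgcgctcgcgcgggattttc

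The CHR was searched as TTTGAA or TTCGAA, the E2F motif as TTTCCCGC or TTTGGCGC and the CCAAT box as CCAAT, on both strands from 250 bases before to 50 bases after each start. None of the motifs contains another. The mitosis list matched RefSeq for 42 of its 49 tested genes, with 48 start sites, of which 33 (68.8%) held a CHR and 1 (2.08%) an E2F motif. The DNA replication list matched for 36 of 41 genes, with 49 start sites, of which 3 (6.12%) held a CHR and 20 (40.8%) an E2F motif. Over all 35116 start sites of the table, the shares were 16.4% for the CHR and 2.27% for the E2F motif. A CCAAT box lay in 72.9% of the mitosis windows, 57.1% of the replication windows and 34.6% of all. Some genes have several overlapping windows, and a match describes letters, not binding.

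The deposited table holds 1 mean over 4 libraries for each gene and no value of a single library, so the read counts of each library were recovered from the digits of that mean. The 2 libraries that enter every table of the series were taken as the untreated ones, and the other 2 of this table as RS. The RS libraries held 55.5 and 47.1 M reads and the untreated libraries 19.0 and 15.3 M, so that the untreated libraries set most of the counting error. Normalized counts below are reads divided by the size factor of the library, with the deeper library of each group first. The median gene differed by 0.22 on the log2 scale between the RS libraries, by 0.15 between the untreated libraries, and by 0.38 to 0.41 between an RS and an untreated library. All 11 fibroblast markers (collagens I and III, PDGF receptors, THY1, vimentin and others) were present, with summed normalized counts of 567500 and 1020000 in RS and 844000 and 675400 in untreated cells. Among the markers of other cell types, KRT5 of epithelium, CDH5 of endothelium and CD3E and AIF1 of white blood cells had no read in any of the 4 libraries. The summed white blood cell markers were 114 and 401 against 29.6 and 28.4, nearly all of it CD14, and the summed neuronal markers were 690 and 690 against 314 and 324, with SNAP25 called higher (log2 2.11). Their part in the results below was not tested. In cultures sequenced in bulk, fewer cells with a transcript and less of it per cell cannot be told apart.

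Of the 15532 genes, 2237 (14.4%) differed between RS and untreated cells at an adjusted p under 0.05 (limma-voom, two-sided, Benjamini-Hochberg), of which 1008 (6.49%) were higher and 1229 (7.91%) lower in RS. The difference was at least 1 on the log2 scale for 542 of the higher and 552 of the lower genes, and at least 2 for 248 and 230. The median log2 fold change over all tested genes was 0.01, with 7955 of the 15532 above 0, and the median standard error (SE) was 0.18. In all 2237 the libraries of the groups did not overlap, and over all 15532 genes both RS libraries lay above both untreated ones in 5374 and below them in 5001. The calls rested on both untreated libraries. Without either of them no gene passed, with 2429 and 2701 genes at an unadjusted p under 0.05, whereas 6252 or 6430 genes passed without one of the RS libraries, and the single library left is then assumed to vary like the other group. Scaling by trimmed means gave 2219 genes with 50.1% of them higher, in place of 45.1%.

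**Figure D1:**
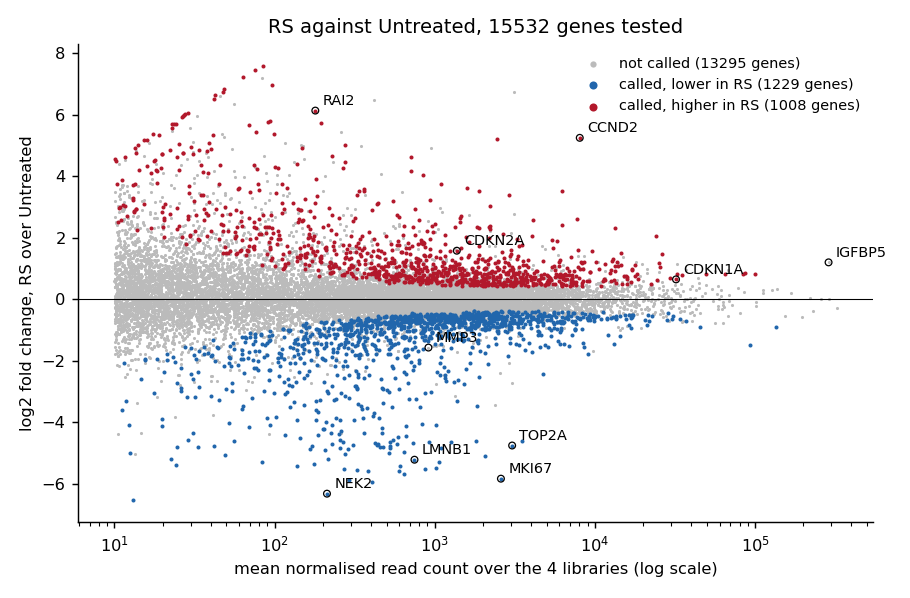
The mean normalized count of each of the 15532 tested genes (x axis, log scale) is plotted against its log2 fold change of RS over untreated cells (y axis), with genes called higher in red, genes called lower in blue and the rest in grey. Of the 2237 coloured genes, 1008 lie above 0 and 1229 below, and NEK2 and MKI67 are among the lowest.

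The largest rises among called genes over a mean of 100 were those of RAI2, KIAA1671, CCND2, TMEM178B, SLC6A17, TMEM229B, CLCA2 and CPE. CCND2 encodes cyclin D2, a partner of the G1 kinases CDK4 and CDK6, and gave 13747 and 17695 normalized counts in RS against 423 and 399.7 in untreated cells. The RS libraries lay far above the untreated ones, a 37.9-fold rise (log2 5.24, SE 0.19, adjusted p = 0.00895). RAI2, a nuclear protein named for its induction by retinoic acid, had 354 and 356 normalized counts in RS and 7.78 and 1.89 in untreated cells, which were 5 and 1 reads. Its log2 rise was 6.13 (SE 0.59, adjusted p = 0.0114), and the 2 RS libraries were nearly equal. SLC6A17, a vesicular transporter of neutral amino acids in neurons, had 504 and 574 against 18.7 and 13.3 (log2 5.00, SE 0.40). CLCA2, a membrane protein that p53 is known to induce, had 425 and 456 against 10.9 and 26.5 (log2 4.66, SE 0.44). CPE, a carboxypeptidase that trims peptide hormones, had 1091 and 1650 against 38.9 and 75.8 (log2 4.64, SE 0.59). For TMEM178B, with 2581 and 7030.0 against 114 and 117, the 2 RS libraries differed more than the untreated ones (log2 5.21, SE 0.93, adjusted p = 0.0326). KIAA1671 rose by 5.73 and TMEM229B, a membrane protein, by 4.91 on the log2 scale. Among all genes called higher, 26 had no read in either untreated library and 47 had 1 to 3, so that the size of their rise is not determined.

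Genes of mitosis fell without exception among those tested. All 49 of the list (2 more lay under the mean of 10) were lower in RS, with a median log2 fold change of -4.63 against 0.01 over all tested genes, and every member tested was called lower under the other scalings, filters and test tried as well, apart from leaving out an untreated library, when no gene of the table passed. The proliferation antigen MKI67 had 188 and 35.0 normalized counts in RS and 5709 and 4455 in untreated cells. It fell by 5.84 on the log2 scale (SE 0.66, adjusted p = 0.0138), and the RS libraries themselves differed 5.25-fold. TOP2A, the topoisomerase that untangles sister chromatids, had 305 and 144 against 6086 and 5669 (log2 -4.76, SE 0.32, adjusted p = 0.00895). NEK2, a kinase of centrosome separation, had 21.1 and 0.66 against 408 and 422, the largest fall of all the called genes over a mean of 100 (log2 -6.33, SE 1.11). Other kinetochore, spindle and cytokinesis genes among the 8 largest falls were KIF18B (log2 -5.88), a kinesin of spindle microtubules, DLGAP5 (log2 -5.68), a spindle assembly factor, DEPDC1 (log2 -5.58), UBE2C (log2 -5.58), the ubiquitin-conjugating enzyme of the anaphase-promoting complex, and CKAP2L (log2 -5.55), a spindle protein.

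The genes with the smallest p in this group fell in both RS libraries, and choosing by p favours genes whose libraries lie close. ANLN, the anillin scaffold of the cleavage furrow, had 326 and 222 normalized counts against 6652 and 6844, a 24.7-fold fall (log2 -4.63, SE 0.19, adjusted p = 0.00895). TPX2, which activates Aurora A on the spindle, had 332 and 271 against 3455 and 3349 (log2 -3.49, SE 0.13). PTTG1, the securin that restrains sister chromatid separation, had 91.0 and 83.1 against 949 and 1059 (log2 -3.51, SE 0.16). KIF23, the kinesin of the central spindle whose promoter is printed above, had 320 and 342 against 1768 and 1904 (log2 -2.47, SE 0.11), and KIF11, the kinesin that separates the spindle poles, printed beside it, fell by 3.06. The member nearest 0 was the checkpoint gene BUB3, also a called fall, with 2276 and 2285 against 4006 and 3847 (log2 -0.78, SE 0.09, adjusted p = 0.0135). Within RS, 47 of the 49 mitosis genes were higher in the deeper library, by a median of 1.08 on the log2 scale, while the untreated libraries differed by a median of 0.09 in size. The fall stood in both RS libraries, with a median of -3.89 when the shallower RS library was left out and -5.16 when the deeper one was.

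Of 41 DNA replication genes, 39 fell and 2, RPA3 and POLA2, did not pass the test. None rose, and the median log2 fold change was -2.07, a smaller shift than that of the mitosis list. The largest falls were those of MCM10 (log2 -5.19), an initiation factor, RRM2 (log2 -5.11), the regulated subunit of ribonucleotide reductase, and CDC45 (log2 -4.91), a part of the replicative helicase, which were chosen for naming after their values were seen. Of the helicase core, MCM7 had 851 and 757 normalized counts in RS and 3704 and 3264 in untreated cells (log2 -2.11, SE 0.12, adjusted p = 0.00895), with both RS libraries far below. CDC6, which loads the helicase onto origins, had 101 and 125 against 879 and 763 (log2 -2.88, SE 0.18). CHAF1B, a subunit of the chromatin assembly factor that follows the fork, had 48.9 and 46.2 against 383 and 379 (log2 -2.99, SE 0.18). Of the genes with a printed E2F motif, TYMS (log2 -2.94), of thymidylate synthesis, RFC3 (log2 -2.48), of the clamp loader, and MCM6 (log2 -2.07), of the helicase, fell. TIMELESS, which stabilizes stalled forks, fell by 1.81 on the log2 scale (SE 0.11). RPA3, the small subunit of the single-strand binding protein, lay below in both RS libraries (115 and 107 against 176 and 210) with an adjusted p of 0.0587. The libraries within RS differed less for this list than for mitosis, by a median of 0.30 in size.

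**Figure D2:**
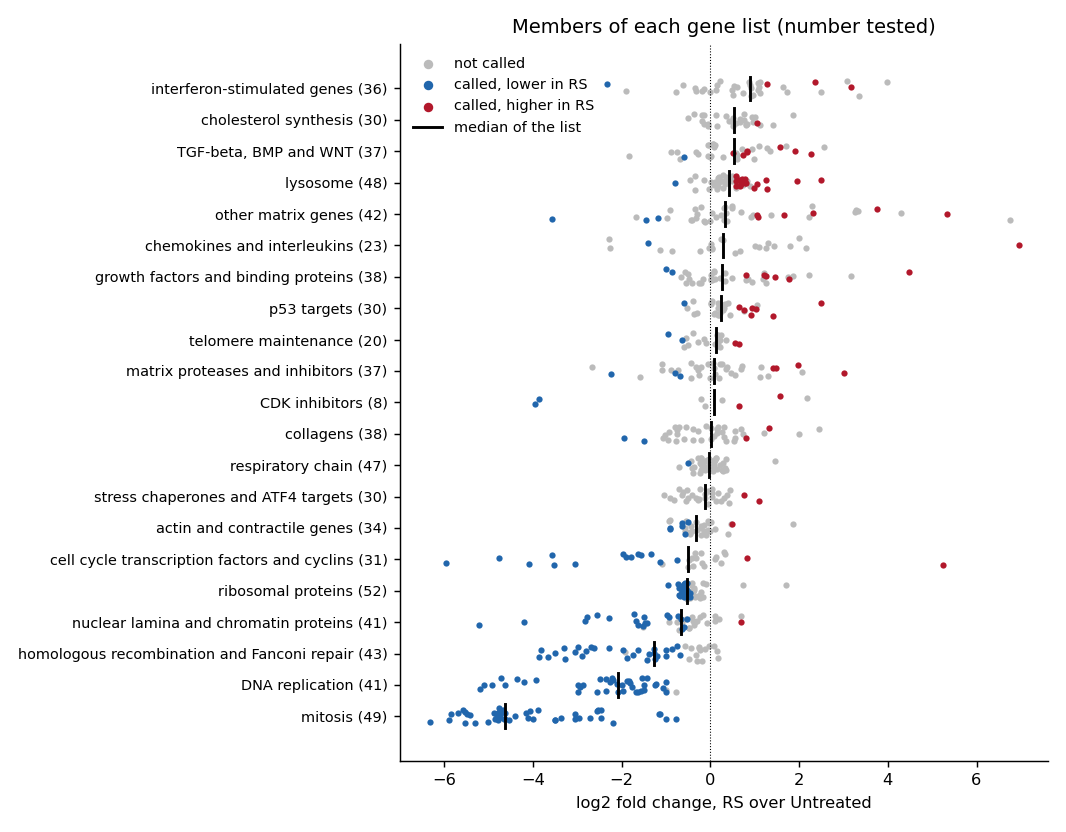
For each of the 21 gene lists, points show the log2 fold change of RS over untreated cells of every tested member (x axis), red where called higher, blue where called lower and grey where not called, with the median as a black line. Mitosis (median -4.63) and DNA replication (median -2.07) lie to the left of 0, whereas the lysosome list (median 0.41) and the TGF-beta, BMP and WNT list (median 0.53) lie to the right, with most of their members not called.

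Among the 31 transcription factors, cyclins and kinases that drive the cycle, 14 fell, 2 rose and 15 did not pass, with a median log2 fold change of -0.50. MYBL2, the B-MYB factor that turns the DREAM complex into an activator, had 18.5 and 7.91 normalized counts against 825 and 775 (log2 -5.96, SE 0.39, adjusted p = 0.00895). FOXM1, the activator of late cell cycle genes, had 151 and 79.1 against 1810 and 2068 (log2 -4.09, SE 0.29). Cyclin A2, encoded by CCNA2, had 149 and 110 against 1578 and 1394 (log2 -3.52, SE 0.19). The 2 rises were D-type cyclins, CCND2 and, named after its value was seen, CCND1, with 135570 and 122760 against 72713 and 72245 (log2 0.83), while the third D-type cyclin, CCND3, overlapped between the groups (log2 0.10, SE 0.25, adjusted p = 0.802).

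The 8 CDK inhibitors did not move as 1 group, with 2 higher, 2 lower and 4 not called. CDKN2A (p16 and ARF, on chromosome 9) had 2156 and 1968 normalized counts in RS and 694 and 689 in untreated cells. All RS values lay above all untreated values, a 2.97-fold rise (log2 1.57, SE 0.11, adjusted p = 0.00978), and the counts per gene do not separate the p16 and ARF transcripts. CDKN1A, which encodes p21, was already abundant in untreated cells, with 24244 and 26109 normalized counts, and reached 38327 and 40086 in RS, a rise of 1.56-fold (log2 0.64, SE 0.11, adjusted p = 0.0295). CDKN2B, the p15 neighbour of CDKN2A, had 989 and 2345 against 375 and 290, above in both RS libraries, but these differed so much that the test was not passed (log2 2.19, SE 0.61, adjusted p = 0.0774). CDKN2C, which encodes p18 (log2 -3.95, SE 0.54), and CDKN3, a phosphatase of CDK2 that itself peaks in dividing cells (log2 -3.86, SE 0.26), fell. CDKN2D had a log2 fold change of -0.12 (adjusted p = 0.609).

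**Figure D3:**
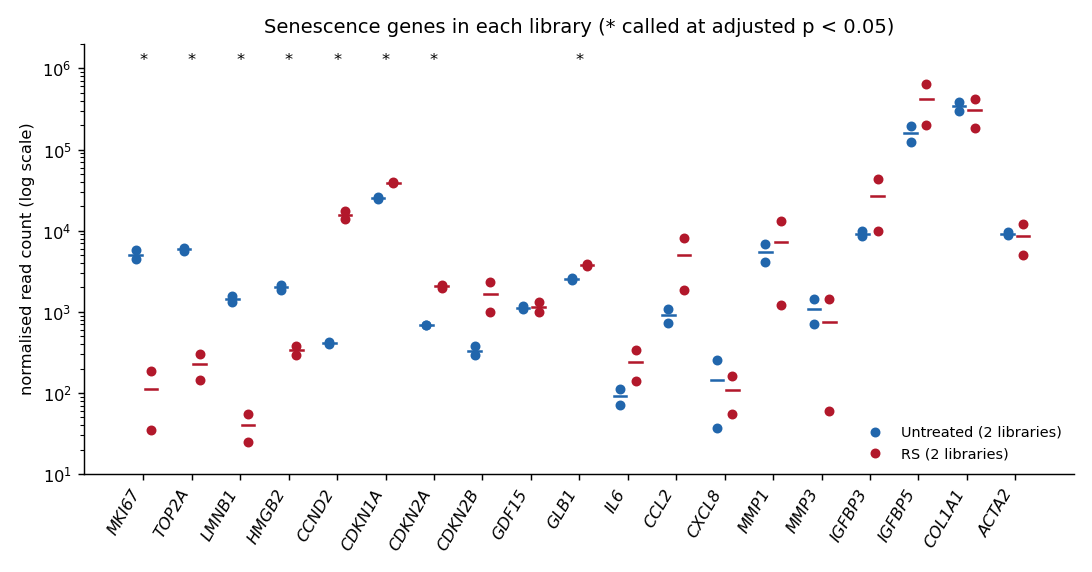
Normalized counts (y axis, log scale) of senescence genes are shown as points for each of the 2 RS (red) and 2 untreated (blue) libraries, with the mean of each group as a line and a star over called genes. LMNB1, HMGB2, MKI67 and TOP2A lie lower in both RS libraries, CDKN1A, CDKN2A and GLB1 higher, and CXCL8, MMP1, MMP3, GDF15, COL1A1 and ACTA2 overlap between the groups.

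Of 30 p53 target genes tested, 7 rose, 1 fell and 22 did not pass the test, and 25 lay above 0 (median log2 fold change 0.25). FUCA1, a lysosomal fucosidase that p53 induces, had 256 and 218 normalized counts against 35.8 and 49.2 (log2 2.49, SE 0.31, adjusted p = 0.0165). TIGAR, which lowers glycolytic flux, had 1050 and 908 against 453 and 506 (log2 1.03, SE 0.15). RRM2B, the p53-dependent subunit of ribonucleotide reductase, had 5887 and 5441 against 2779 and 3186 (log2 0.93, SE 0.11), the reverse of the direction of RRM2. ZMAT3, an RNA-binding p53 target, rose by 0.77 (SE 0.10) on the log2 scale, and the other rises were CDKN1A, TP53INP1 (log2 1.42) and SPATA18 (log2 0.92). AEN, a nuclease, was the only fall (log2 -0.59). GDF15, a secreted stress hormone and p53 target, had 1321 and 981 against 1175 and 1072 and overlapped between the groups (log2 0.02, SE 0.18, adjusted p = 0.951). XPC, of nucleotide excision repair, was the member nearest 0 (log2 0.00, adjusted p = 0.988).

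Genes of homologous recombination and the Fanconi pathway, which repair broken and crosslinked DNA in dividing cells, fell in 28 of 43 cases and rose in none (median log2 fold change -1.27). FANCA, of the Fanconi core complex, had 43.7 and 43.5 normalized counts against 442 and 413 (log2 -3.29, SE 0.18, adjusted p = 0.00895). FANCD2 (log2 -3.06) and FANCI (log2 -2.30), the pair that this complex modifies, and the helicase gene BRIP1 (log2 -2.90) fell too. RAD51C, with 263 and 371 against 305 and 328, overlapped between the groups (log2 -0.03). Telomere genes moved less. Of 20 tested, DKC1, the pseudouridine synthase of telomerase (log2 -0.96, SE 0.09, adjusted p = 0.0108), and its partner GAR1 (log2 -0.64, SE 0.12) fell, whereas TERF2IP, the RAP1 subunit of shelterin (log2 0.56, SE 0.11), and STN1, of the CST complex that completes telomere ends (log2 0.63, SE 0.13), rose. The calls of TERF2IP and STN1 were lost under library totals, and those of STN1 and GAR1 with no filter beyond 1 read. NOP10, a further telomerase partner, was nearest 0 (log2 0.09). TERT, the telomerase reverse transcriptase, had 0 reads in each of the 4 libraries.

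In the list of nuclear lamina and chromatin proteins, 20 of 41 fell, 1 rose and 20 did not pass (median log2 fold change -0.66). LMNB1, which encodes lamin B1 and lies on chromosome 5, had 55.6 and 25.1 normalized counts in RS and 1579.5 and 1337 in untreated cells. Both RS libraries lay far below, a 37.4-fold fall (log2 -5.22, SE 0.36, adjusted p = 0.00895). TMPO, which encodes lamina-associated polypeptides, had 557 and 517 against 2832 and 2415 (log2 -2.28, SE 0.12), and the lamins LMNB2 (log2 -1.47) and LMNA (log2 -0.65) fell by less. HMGB2, a DNA-bending chromatin protein, had 378 and 297 against 2148 and 1843 (log2 -2.56, SE 0.16, adjusted p = 0.00895). UHRF1, which brings the maintenance methyltransferase to replicated DNA, had 375 and 408 against 2939.5 and 2428 (log2 -2.78, SE 0.14). H2AZ1, a histone variant, had 1766 and 1988 against 6004 and 6436 (log2 -1.73, SE 0.11). The 1 rise was EZH1 (log2 0.69), while its paralog EZH2, the Polycomb methyltransferase of dividing cells, fell (log2 -2.82), both named after their values were seen. H3-3A, a replacement histone H3 gene, had a log2 fold change of -0.07 (adjusted p = 0.744).

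How far the RS libraries lay apart differed between the gene lists. Its part in the share of members called was not tested. The median size of the log2 difference between the RS libraries was 0.75 for the matrix genes other than collagens, 0.73 for collagens, 0.68 for growth factors and 0.60 for interferon-stimulated genes, each larger than between the untreated libraries (0.36, 0.27, 0.23 and 0.34). For telomere genes it was 0.13 against 0.11 and for lysosomal genes 0.16 against 0.13. Chemokines and interleukins differed as widely between the untreated libraries (0.64) as between the RS libraries (0.66). Of the collagens 7 of 38, and of the other matrix genes 10 of 42, were higher in the deeper of the RS libraries. The share of members called was under the 14.4% of all tested genes for chemokines and interleukins (8.70%), collagens (10.5%), interferon-stimulated genes (11.1%), stress chaperones and ATF4 targets (6.67%), cholesterol synthesis (3.33%) and the respiratory chain (2.13%), and between 18.9% and 26.7% for the proteases, other matrix, growth factor, TGF-beta, actin, telomere and p53 lists.

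**Figure D4:**
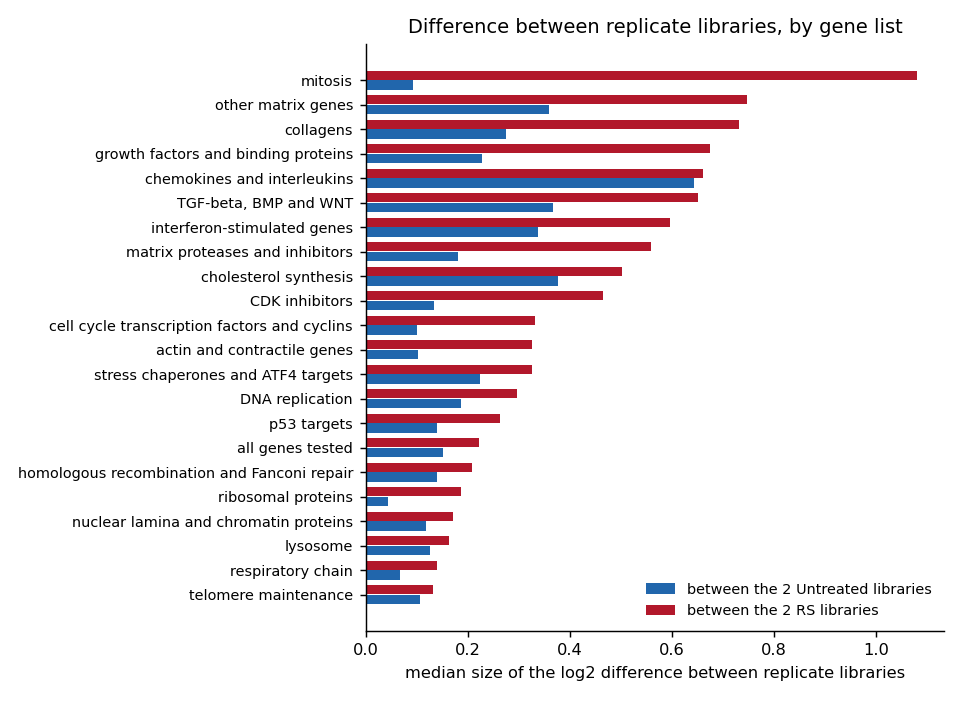
Bars give, for each gene list and for all tested genes, the median size of the log2 difference between the 2 RS libraries (red) and between the 2 untreated libraries (blue), on an x axis that starts at 0. The mitosis list has the longest red bar (1.08) and a short blue one (0.09), and the red bars of the matrix, collagen and growth factor lists exceed 0.65.

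Cytokines of the SASP were higher in both RS libraries for some genes, but the RS libraries differed widely and few passed the test. Of 39 chemokine and interleukin genes, 16 lay under a mean of 10, and of the 23 tested 1 rose, 1 fell and 21 did not pass (median log2 fold change 0.28). Without the deeper RS library the median was 0.68, and without the shallower one -0.03. IL6 had 142 and 341 normalized counts in RS and 71.6 and 112 in untreated cells (log2 1.26, SE 0.70, adjusted p = 0.274). The chemokine CCL2 had 1842 and 8243 against 738 and 1099 (log2 2.15, SE 0.82, adjusted p = 0.145). In both genes the RS libraries lay above the untreated ones, with the shallower RS library highest. CXCL8, the neutrophil chemokine IL-8, had 55.0 and 160 against 37.3 and 256 and overlapped (log2 -0.04, SE 1.00, adjusted p = 0.982). CXCL14, a chemokine of epithelia and stroma, was the rise (adjusted p = 0.0497), with 698 reads in the RS libraries together and 1 in the untreated libraries. The ratio of these summed reads after scaling was 236, with an exact 95% interval from 42.2 to 9340 that covers counting error only. CXCL14 reached the mean of 10 through RS alone, so it could be tested only as a rise. IL11, a cytokine of the IL-6 family that TGF-beta induces in fibroblasts, fell, with 453 and 367 against 1039.5 and 1127 (log2 -1.40, SE 0.15, adjusted p = 0.0127). LIF (log2 0.55, adjusted p = 0.0582) and IL1R1 (log2 0.66, adjusted p = 0.0642) lay above in both RS libraries without passing, and IL7 was nearest 0 (log2 0.00).

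Matrix proteases and their inhibitors gave 4 rises and 3 falls among 37 genes (median log2 fold change 0.08). The interstitial collagenase MMP1 had 13263 and 1204 normalized counts in RS and 4100.4 and 6895 in untreated cells, and the stromelysin MMP3 had 1459.8 and 60.02 against 705 and 1438. In both genes the deeper RS library was the highest and the shallower the lowest of the 4, so that neither differed beyond the spread (log2 -0.44, SE 1.13, adjusted p = 0.811, and log2 -1.58, adjusted p = 0.501). The membrane-type proteases MMP15, with 698 and 563 against 210.1 and 273 (log2 1.41, SE 0.23, adjusted p = 0.0273), and MMP24, with 252 and 266 against 62.2 and 68.2 (log2 1.97, SE 0.22, adjusted p = 0.0136), rose. The others were ADAMTS5 (log2 3.02) and SERPINB2 (log2 1.49), an inhibitor of plasminogen activators, which rose, and PLAUR (log2 -0.79), the urokinase receptor, which fell. TIMP3, a matrix-bound protease inhibitor, had 15640.0 and 15970.0 against 25573 and 25533 (log2 -0.69, SE 0.09, adjusted p = 0.0202). ADAMTS4, an aggrecanase, fell by 2.25 (SE 0.39) on the log2 scale from low counts. ADAM9, a membrane-bound protease, was nearest 0 (log2 -0.02).

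Of 38 collagens and collagen-modifying enzymes, 2 rose, 2 fell and 34 did not pass, and the median log2 fold change was 0.02, with 0.14 and -0.36 without the deeper and the shallower RS library. COL4A5, a basement membrane chain, had 3929 and 4219.7 normalized counts against 2314 and 2320.4 (log2 0.81, SE 0.09, adjusted p = 0.0144), and COL24A1 rose by 1.32 (SE 0.25). COL6A3, of the microfibrillar collagen VI, had 54327 and 42994 against 155660 and 118200 (log2 -1.49, SE 0.20, adjusted p = 0.0194), and COL5A3 fell by 1.95 (SE 0.37). COL1A1, the main chain of fibrillar collagen, had 185550 and 424250 against 387320 and 302820 and overlapped (log2 -0.28, SE 0.41, adjusted p = 0.663), as did LOXL1, which crosslinks elastin and collagen (log2 0.02). Among 42 other matrix genes 6 rose and 3 fell (median log2 fold change 0.34, or 0.77 and 0.18 without the deeper and the shallower RS library). LAMA4, a laminin chain, had 17276 and 20739 against 9059.8 and 8857 (log2 1.08, SE 0.12, adjusted p = 0.0140). HAS2, which makes hyaluronan, had 66.9 and 41.6 against 795 and 498 (log2 -3.56, SE 0.39, adjusted p = 0.0133). FBLN1, a fibulin, fell by 1.46 and POSTN, periostin, by 1.18, both on the log2 scale. HAPLN1, a link protein of hyaluronan, rose too, with 273 reads in the RS and 2 in the untreated libraries, a scaled ratio of 46.2 (exact 95% interval 12.7 to 383, for counting error only). The other rises were MGP (log2 3.76), LUM (log2 2.32), SPON1 (log2 1.66) and LAMB1 (log2 1.06). FN1, fibronectin, was nearest 0 (log2 -0.00, adjusted p = 0.992).

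Growth factors and their binding proteins gave 6 rises and 2 falls among 38 genes (median log2 fold change 0.27, or 0.43 without the deeper RS library). IGFBP7, a secreted IGF-binding protein linked to senescence, had 37084 and 39945 normalized counts against 12973 and 14979 (log2 1.46, SE 0.13, adjusted p = 0.0103). IGFBP3 had 10024 and 43950.0 against 9859.6 and 8559.7, and IGFBP5 had 197950 and 637210 against 193490 and 125620. In both the RS libraries lay above the untreated ones, but only the shallower RS library was far above, and neither passed (log2 1.22, adjusted p = 0.259, and log2 1.19, adjusted p = 0.215). ANGPTL4, an inhibitor of lipoprotein lipase, had 1167 and 1277 against 313 and 411 (log2 1.78, SE 0.17, adjusted p = 0.0114). FGF5 (log2 -1.01, SE 0.11) and PDGFC (log2 -0.87, SE 0.11) fell, and BDNF was nearest 0 (log2 0.01). The other rises were TGFA, an EGF receptor ligand with 59 and 16 reads in RS and none in untreated cells, NRG1 (log2 1.22), ANGPTL2 (log2 1.26) and IGFBP4 (log2 0.80).

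In the TGF-beta, BMP and WNT list 7 of 37 genes rose and 1 fell (median log2 fold change 0.53). The median was 0.26 without the deeper RS library and 0.20 without the deeper untreated library, and 5 genes rose under library totals. GDF6, a BMP family ligand, had 3248 and 4076 normalized counts against 864 and 642 (log2 2.28, SE 0.20, adjusted p = 0.0105), and BMP6 had 231 and 320 against 62.2 and 81.4 (log2 1.91, SE 0.36, adjusted p = 0.0359). DKK3, a secreted protein of the WNT inhibitor family, had 65359 and 61247 against 36213 and 35177 (log2 0.83, SE 0.11, adjusted p = 0.0181). Follistatin, encoded by FST, which binds activins and BMPs, was the fall, with 7007 and 7622 against 10831 and 11388 (log2 -0.60, SE 0.10, adjusted p = 0.0288). The other rises were WNT16 (log2 0.83), DKK2 (log2 1.57), the BMP antagonist NOG (log2 0.74) and the receptor TGFBR2 (log2 0.52). SMAD3, the signal transducer of TGF-beta, was nearest 0 (log2 0.01).

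Interferon-stimulated genes lay mostly above 0, 27 of 36, with the median log2 fold change at 0.89, while 3 rose and 1 fell by the test. That median was 0.46 without the shallower RS library. IFI6, a mitochondrial and endoplasmic reticulum protein, had 2814 and 4680.1 normalized counts against 778 and 638 (log2 2.36, SE 0.31, adjusted p = 0.0188). IFIT2, which binds viral RNA, had 538 and 505 against 230.3 and 197 (log2 1.28, SE 0.16, adjusted p = 0.0169), and IFI27 had 56.6 and 85.7 against 10.9 and 3.79 (log2 3.17, SE 0.69, adjusted p = 0.0478). CGAS, the sensor of cytosolic DNA upstream of interferon, was the fall, with 57.1 and 51.4 against 279 and 271 (log2 -2.33, SE 0.19, adjusted p = 0.00981). IFI35 was nearest 0 (log2 -0.01). The list's higher calls ranged from 3 to 9 over the settings that kept all 4 libraries, the most with the day 16 libraries added to the fit, and 7 of the 36 genes were higher in the deeper RS library.

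Lysosomal genes rose in 16 of 48 cases and fell in 1 (median log2 fold change 0.41), and 42 lay above 0. GLB1, which encodes the beta-galactosidase read in the SA-beta-gal stain, had 3674 and 3903 normalized counts in RS and 2609.6 and 2445 in untreated cells (log2 0.58, SE 0.10, adjusted p = 0.0288), and both RS libraries lay above both untreated ones. CTSF, cathepsin F, had 1517 and 1469 against 359 and 421 (log2 1.95, SE 0.13, adjusted p = 0.00895). ASAH1, acid ceramidase, had 5422 and 4668 against 2132 and 2093 (log2 1.25, SE 0.11, adjusted p = 0.0108). NPC2, which moves cholesterol out of the lysosome, had 3741 and 3537 against 1679 and 1856 (log2 1.04, SE 0.10, adjusted p = 0.0118). The p53 target FUCA1 counted in this list too. Other rises included MITF (log2 1.28), a transcription factor of lysosomal genes, IDUA (log2 0.99), GAA (log2 0.81), PSAP (log2 0.78), CTSD (log2 0.67) and HEXA (log2 0.64). PPT1, a thioesterase, was the fall (log2 -0.79), and LIPA, the acid lipase, was nearest 0 (log2 0.02). The higher calls ranged from 14 to 25 over those settings.

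Among 34 actin and contractile genes 6 fell and 1 rose (median log2 fold change -0.32, or -0.18 without the deeper RS library). TPM4, a tropomyosin, had 30026 and 33443 normalized counts against 58918 and 59742 (log2 -0.90, SE 0.11, adjusted p = 0.0165), and TAGLN2 had 9034 and 9631 against 14047 and 14913 (log2 -0.63, SE 0.10). SMTN, smoothelin, fell by 0.57, and the other falls were ACTG1 (log2 -0.90), SRF (log2 -0.64), the factor that drives many of these genes, and TPM3 (log2 -0.51). CNN3, a calponin, was the rise, with 18867 and 18402 against 12950.0 and 13570.0 (log2 0.49, SE 0.10, adjusted p = 0.0391), and its call and that of SMTN were lost under library totals (adjusted p = 0.0687 and 0.0527). ACTA2, smooth muscle actin, overlapped with 5049 and 11982 against 8729.9 and 9513 (log2 -0.22, adjusted p = 0.737), and TAGLN was nearest 0 (log2 -0.01). Of 30 cholesterol synthesis genes only SC5D rose (log2 1.04, SE 0.19, adjusted p = 0.0326), although 22 lay above 0 (median log2 fold change 0.54, or 0.30 and 0.82 without the deeper and the shallower RS library, and 0.83 without the deeper untreated one). MSMO1 had 4497 and 2520.1 against 1547 and 1000.1 (log2 1.41, adjusted p = 0.0659), LSS had a log2 fold change of 0.83 (adjusted p = 0.0512), SREBF2, the transcription factor of the pathway, of 0.66 (adjusted p = 0.0548) and SCD of -0.05. The count of higher calls in this list ranged from 1 to 8 over the same settings. Among 30 stress chaperones and ATF4 targets, DNAJB9, a chaperone of the endoplasmic reticulum (log2 1.10, SE 0.14, adjusted p = 0.0164), and NUPR1, a stress-induced chromatin protein (log2 0.76, SE 0.15, adjusted p = 0.0417), rose, none fell, and the median log2 fold change was -0.12. The call of NUPR1 was lost with no filter beyond 1 read, and 4 genes fell there and under library totals. CALR (log2 -0.52) and PDIA4 (log2 -0.55), both of protein folding, did not pass, and TXNRD1 was nearest 0 (log2 0.04).

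Ribosomal protein genes fell in 26 of 52 cases and rose in none, by small amounts (median log2 fold change -0.53). RPSA had 11613 and 11438 normalized counts against 21904 and 22476 (log2 -0.95, SE 0.09, adjusted p = 0.0118), RPS16 fell by 0.74, RPL10A by 0.70 and RPS23 by 0.66 on the log2 scale, and RPL22 was nearest 0 (log2 -0.09). The median stayed between -0.47 and -0.55 over the settings that kept all 4 libraries, but the calls depended on the scaling, with 16 falls under trimmed means and 11 under library totals. Near-identical pseudogenes can share reads with this family, and their part in these falls was not tested. Of the 417 processed pseudogenes tested, of any gene family, 26 were called lower and 3 higher (6.95%), against 14.4% of all tested genes. Of 47 respiratory chain genes, COX7A2 fell (log2 -0.51, SE 0.10, adjusted p = 0.0369) and none rose, with the median log2 fold change at -0.02. The call of COX7A2 was lost under library totals (adjusted p = 0.0522) and with no filter beyond 1 read (adjusted p = 0.0515). ATP5F1A (log2 -0.41) and ATP5F1C (log2 -0.43), subunits of ATP synthase, lay below in both RS libraries without passing, MT-ND1 lay above (log2 0.35, adjusted p = 0.0998) and MT-ATP6 was nearest 0 (log2 0.00).

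RS was next set beside day 16 of the other inducers in 1 fit of 10 libraries, over the 15187 genes whose reads were recovered in all of them. The 345 genes without a single solution in a day 16 library, CDKN1A and RPSA among them, were not compared. RS differed from Ca2+-Sen in 2169 genes (14.3%), 1116 higher and 1053 lower in RS, from PMD-Sen in 587 (3.87%), 377 higher and 210 lower, and from DDR-Sen in 26 (0.171%), 21 higher and 5 lower. Leaving out 1 library of the pair compared gave 405 to 2829, 71 to 1739 and 1 to 535 genes.

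**Figure D5:**
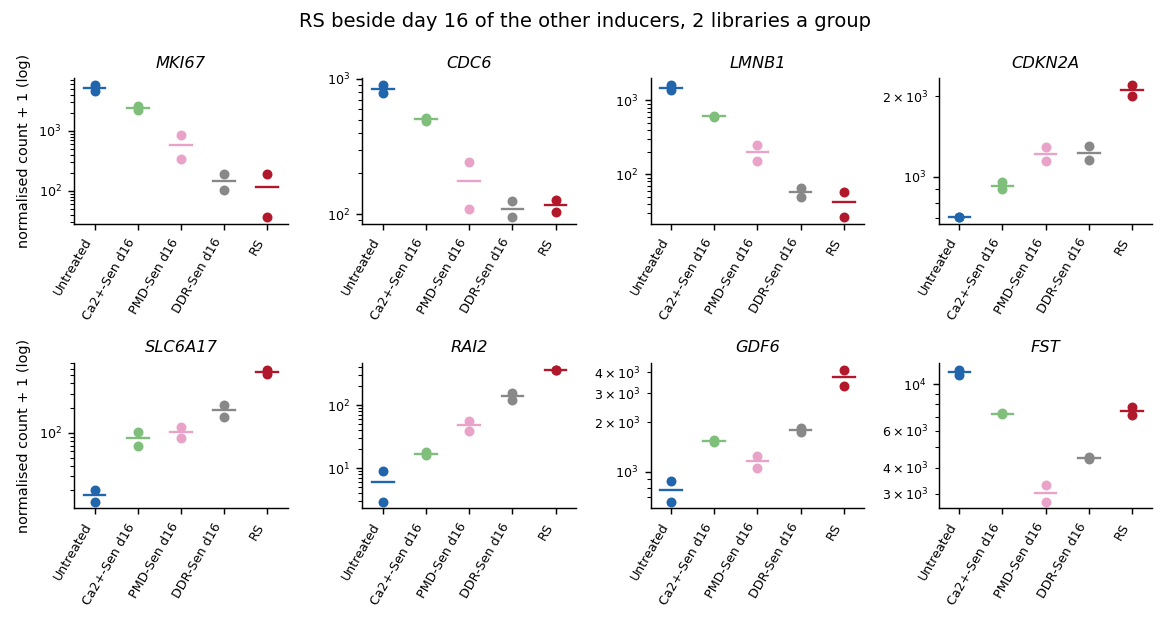
Normalized counts plus 1 (y axis, log scale) of 8 genes are plotted as points for the 2 libraries each of untreated cells, Ca2+-Sen, PMD-Sen and DDR-Sen on day 16, and RS, with the mean of each group as a line. For LMNB1 and MKI67 the DDR-Sen libraries lie nearest to RS and the Ca2+-Sen libraries nearest to the untreated cells, whereas CDKN2A, RAI2, SLC6A17 and GDF6 are highest in RS.

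More cell cycle genes set RS apart from Ca2+-Sen than from PMD-Sen. Of all genes tested, 6.93% were lower in RS than in Ca2+-Sen, 1.38% than in PMD-Sen and 0.0329% than in DDR-Sen. RS was lower than Ca2+-Sen in 48 of 49 mitosis genes (median difference -3.45 on the log2 scale), in 35 of 41 replication genes (median -1.17) and in 22 of 43 recombination and Fanconi genes (median -0.75). Against PMD-Sen 5 of 49 mitosis and 6 of 41 replication genes were lower in RS (medians -1.46 and -0.53), larger shares than the 1.38% of all genes. Against DDR-Sen no gene of either list was called (medians -0.09 and -0.08). On the scale of this fit, LMNB1 had 56.6 and 25.5 normalized counts in RS, 48.5 and 64.2 in DDR-Sen, 250.3 and 150.1 in PMD-Sen and 618 and 604 in Ca2+-Sen. MKI67 had 191 and 35.6 in RS, 188 and 102 in DDR-Sen, 840.3 and 334 in PMD-Sen and 2255 and 2619 in Ca2+-Sen. RS and DDR-Sen overlapped for LMNB1 (difference -0.49 on the log2 scale, adjusted p = 0.792) and MKI67 (difference -0.66, adjusted p = 0.856), which does not show that they are equal.

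Among the named genes, CDKN2A, RAI2, SLC6A17 and GDF6 were higher in RS than in all 3 day 16 groups. RAI2, SLC6A17 and GDF6 had been named for their change from untreated cells in the same RS libraries, a choice that favours high RS values. CDKN2A had 2197 and 2004 normalized counts in RS, 1151 and 1297 in DDR-Sen, 1144 and 1287 in PMD-Sen and 953 and 898 in Ca2+-Sen, with differences of 0.78, 0.79 and 1.18 on the log2 scale (adjusted p = 0.0258, 0.0103 and 0.000822). RAI2 had 361 and 363 in RS, 120.0 and 153 in DDR-Sen, 55.4 and 37.8 in PMD-Sen and 16.8 and 15.1 in Ca2+-Sen, with differences of 1.42, 2.96 and 4.46. The differences were 1.57, 2.43 and 2.71 for SLC6A17 and 1.04, 1.68 and 1.27 for GDF6, in the same order. FST was higher in RS than in DDR-Sen (0.74) and PMD-Sen, where RS had 7138 and 7759.7 against 4511 and 4388 and against 3299 and 2758, but not than in Ca2+-Sen (0.04, adjusted p = 0.813). CCND2, with 14003 and 18015 in RS, 8596 and 9488 in DDR-Sen, 4637 and 3766 in PMD-Sen and 2801 and 2514 in Ca2+-Sen, was higher in RS than in the latter 2 and missed the threshold against DDR-Sen (0.81, adjusted p = 0.0694). Of the 5 genes lower in RS than in DDR-Sen, CLEC14A, a lectin of endothelium, and HEPH, a copper-dependent iron oxidase, had the largest differences (-4.31 and -4.30) and at most 4.19 normalized counts in an RS library, and were chosen after their values were seen. Lysosomal genes were higher in RS than in Ca2+-Sen in 15 of 44 cases, where 7.35% of all tested genes were higher, than in PMD-Sen in 2, where 2.48% were, and than in DDR-Sen in 0, where 0.138% were.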

How the data were processed

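The mRNA of WI-38 cells was sequenced in 26 groups of 2 libraries, named in 52 deposited files, of which 12 tables were used here. The submitters' processing notes name Trim Galore, HISAT2, HTSeq, featureCounts and DESeq2 and the build GRCh38 (hg38), with versions and settings not given in the sources used here. The authors deposited for each gene 1 signal value, the mean over 4 libraries of counts divided by size factors, beside their own log2 fold changes, standard errors, test statistics, p-values and adjusted p-values, which were not used. No deposited column holds a single library. The mean is printed to 15 digits in 10 tables and to 10 digits in those of PMD-Sen and DDR-Sen on day 16, and each is a sum of whole reads with 1 weight per library.

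The reads were therefore recovered as the whole numbers that give the printed mean. Genes with a mean under 1000 were solved in 1 table, those above over 3 tables, and from 10000 over all 10, which share the untreated libraries. All 15532 genes had 1 solution, and the untreated reads of 26420 to 26610 genes in each of 9 other tables, solved alone, differed in 0 genes. On simulated means, all 1932 genes solved in 1 table and all 300 solved over 10 were recovered right. Solving over 3 tables was not simulated. The fit was run on simulated reads with the spread of the untreated libraries and 200 changed genes. It called 47%, 81% and 94.5% of these at log2 changes of 0.5, 1 and 2, and 4.08%, 12% and 4.55% of its calls were false. The median gene differed by 0.22 on the log2 scale between the RS libraries and by 0.15 between the untreated ones. How these shares change at the wider RS spread, or with more changed genes, was not tested. On day 16, 335 genes of PMD-Sen and 299 of DDR-Sen had more than 1 solution, so their totals are partial. The libraries in every table were taken as untreated and the remaining 2 of the RS table as RS. Which of them carries replicate number 1 or 2 is unknown, so they are called deeper and shallower.

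Genes with a mean of at least 10 were tested with limma-voom (limma 3.58.1, R 4.3.3) on median-of-ratios size factors, two-sided, with Benjamini-Hochberg adjustment over all genes and a threshold of 0.05. Depth ranged from 15.3 to 55.5 M reads. An exact permutation test of 2 against 2 cannot go below p = 0.333. The design assumed counts per library, and the voom fit ran on the recovered ones. The genes named are the 8 largest rises and falls among called genes over a mean of 100, 21 core senescence genes and, in each of 21 gene lists, the 4 smallest p-values and the member nearest 0. Called members beyond these were named after their values were seen. Some genes within the rule are not reported here. The members and lists were chosen with earlier results of these data known. Alternatives were other scalings and filters, limma-trend on log2(CPM + 1), a log2 fold change of at least 1, all 10 libraries in 1 fit and leaving out each library. The list counts under each setting were added after the data were seen. Promoter and motif searches used RefSeq windows of GRCh38.p14. Recovery ran in Python 3.11.15 with numba 0.67.0 and NumPy 2.4.6, tables in pandas 2.3.3 and plots in matplotlib 3.10.9.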

Additional observations from a re-analysis of the deposited data

Results flagged for a closer look

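The direct contrasts of RS with day 16 of the other inducers gave differences between groups by limma-voom in 1 fit of 10 libraries. RS differed from Ca2+-Sen in 2169 genes, from PMD-Sen in 587 and from DDR-Sen in 26. Of the 113 named genes tested there, 28 were higher and 39 lower in RS than in Ca2+-Sen, 20 were higher and 14 lower than in PMD-Sen, and 5 were higher and 0 lower than in DDR-Sen. Over all 15187 genes, the shares higher and lower were 7.35% and 6.93%, 2.48% and 1.38%, and 0.138% and 0.0329%, in the same order. Many of the named genes were chosen by their change from untreated cells in the same RS libraries, so their counts partly reflect that choice.

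The 5 named genes that differed between RS and DDR-Sen were RAI2 (log2 difference 1.42), SLC6A17 (1.57), CDKN2A (0.78), FST (0.74) and GDF6 (1.04). In each, both RS libraries lay above both DDR-Sen libraries. Groups of 2 libraries allow no test for a single library that stands apart.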

How the results depend on the processing

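The 2237 calls of RS against untreated cells became 4556 with all 10 libraries in 1 fit and 1094 at a log2 fold change of at least 1, and ranged from 0 to 6430 when 1 library was left out, with 0 after leaving out either untreated library. With 1 library left out of RS against untreated cells, the spread came from the other group alone. The counts from those fits therefore do not show on which libraries the calls rested. Between 1925 and 3121 genes were called under the other scalings and filters and limma-trend. RS against PMD-Sen gave 268 genes at a log2 difference of at least 1 and 71 to 1739 with 1 library left out, RS against Ca2+-Sen 812 and 405 to 2829, and RS against DDR-Sen 20 at a log2 difference of at least 1, 11 at a mean of at least 100 and 1 to 535.

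Of the 132 named genes, none of the 91 called changed direction in any setting, and 22 of the 41 not called did in at least 1. Those that did so with no library left out lay within 0.03 of 0. Under trimmed means ADAM9 and TAGLN became 0.02, FN1 and IFI35 0.03 and RAD51C 0.00, under library totals BDNF, GDF15, LIPA and LOXL1 became -0.01, IL7, SMAD3 and XPC -0.02 and MT-ATP6 -0.03, under limma-trend IFI35 became 0.05, and with 10 libraries IL7 and SMAD3 became -0.00 and XPC -0.01. When 1 library was left out, ACTA2 ranged from -0.85 to 0.40 on the log2 scale, ADAM9 from -0.16 to 0.12, BDNF from -0.13 to 0.17, CCND3 from -0.17 to 0.39, COL1A1 from -0.88 to 0.31, CXCL8 from -1.49 to 1.26, FN1 from -0.23 to 0.23, GDF15 from -0.20 to 0.23, H3-3A from -0.18 to 0.05, IFI35 from -0.52 to 0.58 and IL7 from -0.42 to 0.40. Likewise LIPA ranged from -0.04 to 0.09, LOXL1 from -0.14 to 0.17, MMP1 from -2.14 to 1.33, MMP3 from -4.02 to 0.57, MT-ATP6 from -0.07 to 0.09, RAD51C from -0.26 to 0.23, SCD from -0.43 to 0.35, SMAD3 from -0.06 to 0.08, TAGLN from -0.19 to 0.16, TXNRD1 from -0.18 to 0.28 and XPC from -0.16 to 0.17. With 1 RS library, ACTA2, IFI35 and MMP1 were called in opposite directions depending on which was kept. CXCL8 was 0.82 without the deeper RS library. Trimmed means kept the call of all 132 named genes compared, and library totals lost 5 and gained 2. No paired analysis was possible because the recovered libraries cannot be tied to the replicate numbers of the labels. The shallow untreated libraries and n = 2 limit the smallest change that could pass.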

Other observations

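A further pair of gene families, chosen after their values were seen, had called genes in 1 direction, higher in RS. Over all 15532 tested genes, 6.49% were called higher and 7.91% lower, and 7955 lay above 0. The replication-dependent histone genes of the clusters, whose transcripts normally end without a poly(A) tail, gave 10 rises and no fall among 21 tested, and 20 lay above 0 (median log2 fold change 1.98). H1-2, a linker histone, had 2779 and 3323 normalized counts in RS and 523 and 686 in untreated cells (log2 2.36, adjusted p = 0.00981 by limma-voom). H4C8 had 1337 and 1381 against 182 and 301 (log2 2.56), and H2BC8 886 and 545 against 88.7 and 98.5 (log2 2.90). H2BC18, called higher, and H2AC18, not called, lay under 10 normalized counts in both untreated libraries. These histone genes reached the mean of 10 through RS alone. A fall in such genes could not be tested, so its absence among them was fixed by the filter. The clustered protocadherins, cell surface adhesion molecules best known from neurons, gave 16 rises and no fall among 40 tested. The rises lay mostly in the alpha cluster (3 of 7) and the beta cluster (11 of 14), in which every member tested was above 0. Of 19 gamma members 2 rose, PCDHGA4 and PCDHGB1, and 10 lay below 0. PCDHA10 had 88.0 and 82.4 normalized counts in RS and no read in untreated cells, so it reached the mean of 10 through RS alone. Other alpha and beta members, PCDHB2 and PCDHB8 among them, had very few untreated reads as well. Such members could be tested only where they were high in RS, so the absence of falls among them was fixed by the filter. Members of a protocadherin cluster share exons, so reads could be split between them.

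Some genes differed widely between the RS libraries. Among 7592 genes with a mean of at least 500, 32 differed over 4-fold between the RS libraries, 22 of them higher in the deeper one, and 7 between the untreated libraries. RNH1, a ribonuclease inhibitor, differed 48.7-fold (3327 and 67.3 normalized counts), EEF1B2, an elongation factor, 27.9-fold (1681 and 59.4), PSMB3, a proteasome subunit, 22.7-fold (1008 and 43.5) and SQSTM1, the autophagy receptor p62, 19.1-fold (3766 and 197). Their cause was not tested.

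Several genes that most cells express had few reads. PRC1 had 5, 1, 11 and 7 reads in the RS and untreated libraries, ACTN4 had 9, 4, 5 and 0, RPS18 had 12, 0, 1 and 0, and CD68 had 2, 0, 0 and 0, so these genes are not reported as low in these cells. Of 12500 protein-coding genes tested 16.7% were called, against 4.56% of 548 long intergenic and 2.23% of 719 antisense genes, which had lower counts.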
